A study of Mus musculus with 4 samples.

Results

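The wells described here are those of the second sorted replicate of mouse ear skin cells in which the endothelial genes that the sort should have enriched were scarce. They were chosen by their own counts: at least 600 reads on genes, 500 to 8000 genes with a read, and a read of fewer than 2 of *Pecam1*, *Cdh5* and *Kdr*. Of the 768 wells of the replicate, 756 passed the limits on reads and genes, and the 12 that did not had fewer than 500 genes. Of those 756, 174 had a read of fewer than 2 of the 3 genes (the member wells, 23.0%, exact binomial 95% interval 20.1 to 26.2%). They made up 112 of 375 wells on plate A (29.9%, 25.3 to 34.8%) and 62 of 381 on plate B (16.3%, 12.7 to 20.4%). The other 582 wells (263 and 319) had a read of at least 2 of the genes and are used for comparison. The intervals cover counting error only. In replicate 1, 765 wells passed the same limits and none was selected by the rule.

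The study sequenced single cells from the ears of wild-type female mice, C57Bl/6 in the labels and C57BL/6 J in the study's methods. The labels give their age as 12 to 26 weeks and the study's methods as a younger range. Ears of 6 mice were pooled and dissociated with collagenase, and cells carrying CD31 but neither CD45 nor Lyve1 were sorted singly into the wells of 384-well plates for Smart-seq2. The labels call the cells blood vascular endothelial cells (BECs), and all wells share this genotype, sex, gate and lack of treatment. Both plates of a replicate hold cells of 1 pool, so wells and plates are no independent replicates of a condition. Because the rule used the counts of these same wells, all values below are a description and none carries a test.

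CD31 is the protein of *Pecam1* and is carried by blood and lymphatic endothelium, and more weakly by platelets and some leukocytes. *Cdh5* encodes VE-cadherin, the adhesion molecule of endothelial junctions, and *Kdr* encodes VEGFR2, the receptor through which endothelium senses VEGF. In skin, vessels are wrapped by mural cells (pericytes and smooth muscle cells) and lie in a dermis of fibroblasts, nerves and lymphatics under an epidermis of keratinocytes and melanocytes. ERCC transcripts are synthetic RNAs added to each well, so their share of a well's reads falls as the amount of captured cellular RNA rises.

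The plates of replicate 2 were shallower than those of replicate 1, with medians of 42539.5 and 40324 reads per well on plates A and B against 182926 and 142086. No 2 wells held identical counts. Member wells lay across the plates of replicate 2, with 3 to 12 in each plate row and 1 to 8 in each column on plate A, and 1 to 9 and 0 to 6 on plate B.

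Of the 3 genes of the rule, *Pecam1* was the one that the member wells still held. It had a read in 170 of them, with 1 to 10 reads in 151, a median of 5 and a highest value of 1096. *Cdh5* had a read in 1 member well, with 5 reads, and *Kdr* in 1, with 1 read, while 2 wells had none of the 3 genes. These values are fixed by the rule. Just outside it lay the 280 comparison wells with a read of exactly 2 genes, each of which had *Pecam1* and either *Cdh5* (129 wells, median 2 reads) or *Kdr* (151 wells, median 2 reads). Their median of *Pecam1* was 6 reads, against 5 in the wells just inside, and their median depth was 21718 reads against 10612.5. The 302 wells with all 3 genes stood apart, with a median depth of 123016 reads and medians of 155 reads of *Pecam1*, 23.5 of *Cdh5* and 12.5 of *Kdr*. Many wells on the 2 sides of the rule thus differed by 1 or 2 reads of a single gene.

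Low reads of a gene followed the layout of the plates. On plate A, 161 genes had at least 300 reads over the whole plate and more than 80% of them in a single well, the source well. Wells that shared the source well's row or column had a read of such a gene in 17.4% and 16.8% of cases, against 1.54% of wells elsewhere on the plate. On plate B, with 284 such genes, the shares were 17.8%, 15.9% and 1.97%, and on replicate 1, with 24 and 12 such genes, they were 35.3%, 34.7% and 3.55%, and 31.9%, 26.1% and 3.79%. Member wells were themselves the source of 61 such genes, in 30 wells. *Krt17*, a keratin of follicular epidermis, had 604 of its 662 reads on plate A in well G5. A gene is therefore called above trace in a well only where it had at least 10 reads and more than 1% of its reads in the other wells of the same row and column, a limit set after these data were seen.

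**Figure D1:**
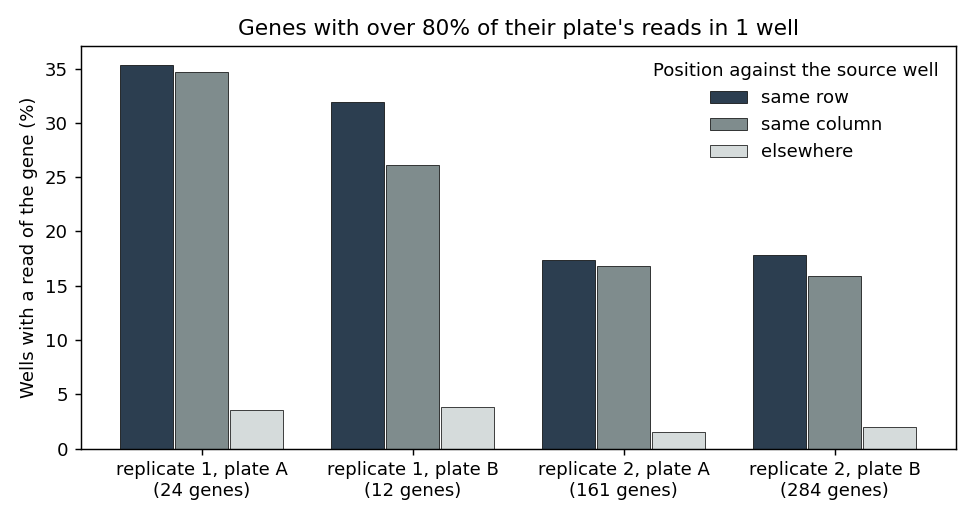
Share of wells (y axis, percent) with a read of a gene whose reads were held by 1 source well, in the row of that well, in its column and elsewhere on the plate, for each of the 4 plates. On plate A of replicate 2 the shares were 17.4%, 16.8% and 1.54%.

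By that limit, *Pecam1* was above trace in 12 of the 174 member wells, and none of the 3 genes was above trace in the other 162. Among the 582 comparison wells, none of the 3 was above trace in 259, 1 was in 98, 2 were in 138 and all 3 were in 87. The median of *Pecam1* in member wells was 0.08% of its reads in the same row and column on plate A and 0.09% on plate B. In the comparison wells it was 0.83% and 0.20%. If the rule had counted the 3 genes only above trace, it would have taken 531 wells instead of 174, a number that depends on the limit chosen. By the same limit 120 wells of plate A and 99 of plate B of replicate 1 had fewer than 2 of the 3 genes. The source of the *Pecam1* reads of member wells was not tested.

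**Figure D2:**
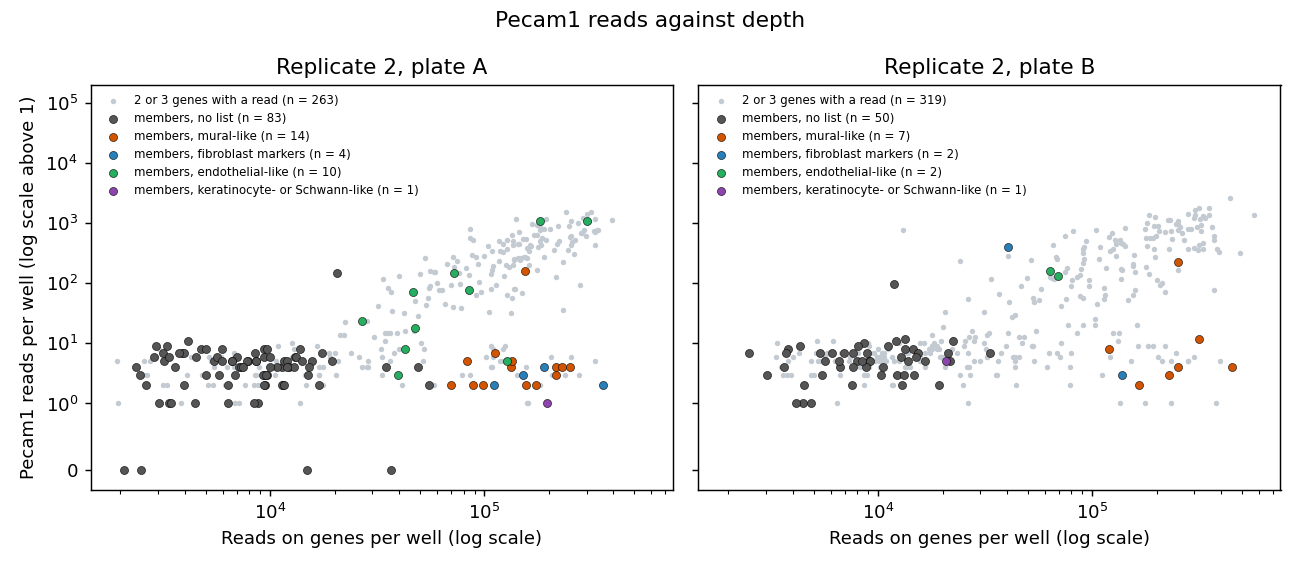
Reads of *Pecam1* per well (y axis, log scale above 1) against reads on genes (x axis, log scale), for comparison wells (grey) and member wells (coloured by the marker list that led them) of each plate of replicate 2. Of the 174 member wells, 151 had 1 to 10 reads of *Pecam1*, over depths from 2085 to 448033 reads.

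The member wells were shallow and rich in ERCC reads. Their median depth was 9971 reads on plate A and 11489.5 on plate B, against 82512 and 54628 in the comparison wells. They had a median of 876.5 and 1142 genes with a read, against 2452 and 2289. ERCC reads themselves differed little, with medians of 1921.5 and 2392 in member wells and 1555 and 2187 in the others, and the ERCC share was 15.3% and 18.6% against 1.87% and 3.51%. Fewer reads on genes at a like number of ERCC reads cannot be told apart here between a well with no cell, a cell with little RNA and a poor lysis.

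**Figure D3:**
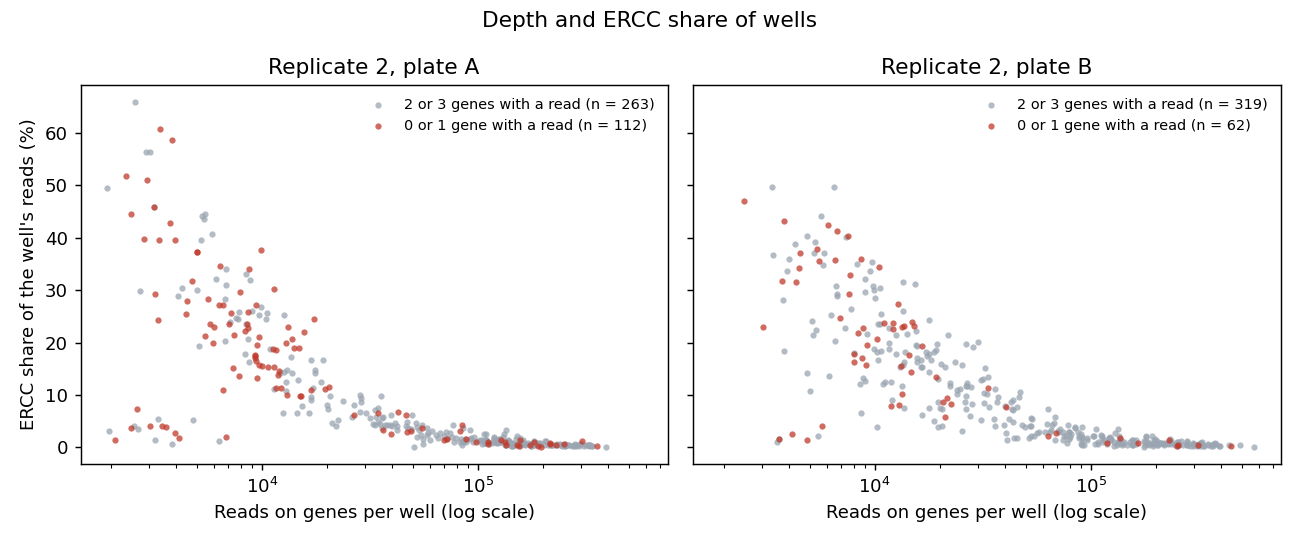
Share of ERCC reads (y axis, percent) against reads on genes (x axis, log scale) in member and comparison wells of plates A and B. Member wells had median ERCC shares of 15.3% and 18.6%, and comparison wells 1.87% and 3.51%.

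Depth split the member wells into a shallow and a deep set, at 20000 reads, a limit chosen after the data were seen. The 124 shallow member wells (78 on plate A, 46 on plate B) stood close to the 162 shallow comparison wells in the following measures. Their median ERCC shares were 21.2% and 23.1% on the 2 plates, against 19.8% and 19.5%. They had 783.5 and 1063 genes with a read, against 826 and 1201, and 18.5 and 19.5 genes above trace, against 17.5 and 24. The 50 deep member wells (34 and 16) in turn stood beside the 420 deep comparison wells, with medians of 111387 against 117978 reads, 1.43% against 1.36% ERCC and 2549 against 2708.5 genes. Not every shallow well was rich in ERCC: of 85 member wells under 10000 reads, 13 had an ERCC share below 10%, as had 12 of 86 comparison wells.

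Transcripts of mitochondria and of a ribosomal RNA locus took a large share of the reads of member wells. The median mitochondrial share was 14.8% on plate A and 23.5% on plate B, against 3.75% and 5.75% in the comparison wells. The share of *Gm42418*, *CT010467.1* and *AY036118*, named here after their values were seen, was 31.0% and 32.3%, against 7.78% and 11.4%. These 3 genes overlap one another at chr17:39846353-39848827 (GRCm38) in the annotation used here, on both strands, so their reads cannot be assigned to 1 of them. *CT010467.1* was the gene with most reads in 132 member wells, and *mt-Rnr2*, the large mitochondrial ribosomal RNA, in 41. Split by depth, the sets lay closer. Below 20000 reads the median mitochondrial share was 24.7% and 31.3% in member wells and 22.2% and 29.5% in comparison wells of plates A and B, and the rRNA locus share was 40.98% and 39.97% against 38.90% and 35.65%. In the deep wells the mitochondrial share was 3.14% and 3.46% against 2.78% and 3.52%, and the rRNA locus share 5.64% and 7.43% against 5.34% and 5.96%. Over all wells, genes of ribosomal proteins went the other way, with median shares per well of 1.02% and 0.82% against 1.97% and 1.74%, while their summed level was 21448 against 22730 CPM and 20256 against 22603 CPM (log2 ratios -0.08 and -0.16).

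The deep member wells pointed to mural cells more often than to another cell type. For each well, the list with the most markers above trace was taken, provided that it had at least 3, over 14 marker lists of skin cell types. Of the 174 member wells, 21 were mural-like (14 on plate A, 7 on plate B; 12.1%, 7.63 to 17.9%), 12 were led by further endothelial genes outside the rule (10 and 2; 6.90%, 3.61 to 11.7%) and 6 were led by fibroblast markers (4 and 2; 3.45%, 1.28 to 7.35%). One well was keratinocyte-like and 1 Schwann cell-like. The remaining 133 wells (83 and 50; 76.4%, 69.4 to 82.5%) had fewer than 3 above-trace markers of each list, and 98 of them had none at all. All 124 shallow member wells were among them, as were 95.1% of the shallow comparison wells, so in the member wells a list was reached only by deep wells. None of the 50 deep member wells was lymphatic-like, which by the 3-count limit leaves room for at most 6% of them.

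Among wells of at least 20000 reads, the makeup of the 2 sets was not alike. Of the 50 deep member wells, 42% were mural-like, 12% led by fibroblast markers, 24% endothelial-like, and 18% had no list. Of the 420 deep comparison wells, 4.29% were mural-like, 2.38% led by fibroblast markers, 70.2% endothelial-like, 10.2% lymphatic-like and 8.81% had no list. The endothelial share in particular follows from the rule, which removed wells with *Cdh5* and *Kdr*.

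**Figure D4:**
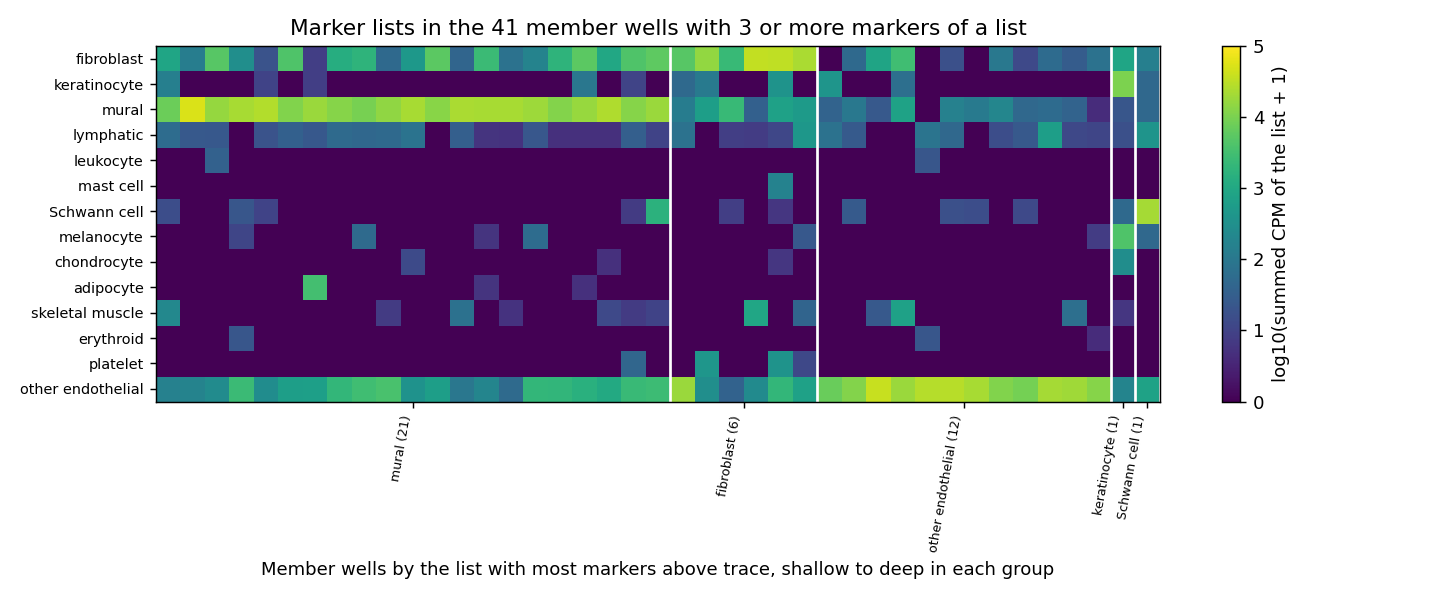
Summed CPM of each marker list (rows, colour as log10 of CPM + 1) in the 41 member wells with at least 3 above-trace markers of a list, grouped by that list. In the 21 mural-like wells the mural list lay between 7565 and 52180 CPM, and in the same wells the leukocyte list reached at most 33.9 CPM.

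The 21 mural-like member wells were deep. They held 69530 to 448033 reads (median 165893), a median of 2941 genes and a median ERCC share of 0.823%. *Rgs5*, a regulator of G protein signalling abundant in pericytes, was above trace in all 21, with 257 to 2652 reads and a median of 6835 CPM (reads scaled to a total of 1e6 reads on genes), between 2362 and 14513 CPM. *Notch3*, the Notch receptor of mural cells, was also above trace in all 21, at 70.9 to 5665 CPM and a median of 1001. *Pdgfrb*, the PDGF receptor that mural cells need for recruitment to vessels, was above trace in 20, at 0 to 6279 CPM and a median of 1295. The 2 receptors and *Rgs5* were thus shared by nearly every mural-like member.

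Genes that part contractile smooth muscle from pericytes varied more among these wells. *Acta2*, smooth muscle actin, was above trace in 16 of the 21, with a median of 3043 CPM and a highest value of 9016. *Myh11*, smooth muscle myosin, was above trace in 17, with a median of 705 CPM and a highest value of 18430. *Tagln*, an actin-binding protein of smooth muscle, was above trace in 11, and *Des*, the muscle intermediate filament desmin, in 14. *Kcnj8* and *Abcc9*, which encode the 2 subunits of a potassium channel of pericytes, were above trace in 16 and 13. *Cspg4*, which encodes the proteoglycan NG2, was above trace in none and had a read in 2 wells, with at most 3 reads. Each mural-like member had between 4 and 9 of the 10 markers above trace, with a median of 7.

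*Cdh5* and *Kdr* had no read in any of the 21 mural-like member wells, which the rule fixes for wells with a *Pecam1* read. *Pecam1* had 2 to 223 reads, with a median of 4 and fewer than 10 in 18 wells. It was above trace in 2, A7 on plate A (163 reads) and J3 on plate B (223 reads). Collagen genes of fibroblasts were common in them: *Col3a1* was above trace in 12 and 5 of the wells had at least 3 fibroblast markers above trace. In 3 of the wells at least 3 further endothelial markers were above trace. The deepest member, L20 on plate B with 448033 reads, combined 2205 reads of *Rgs5* and 1614 of *Pdgfrb* with 1394 of *Col3a1* and 733 of *Ngfr*, a neurotrophin receptor of Schwann cells and some stromal cells. No doublet calls were made, so 1 cell and a pair of cells in a well cannot be told apart.

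Immediate early genes, which rise in cells during tissue dissociation, divided the mural-like members. Of the 15 genes of that list, 14 wells had 0 or 1 above trace, 3 wells had 3 to 5, and 4 wells had 9 or more, namely M15 (14 genes) and C7 (9) on plate B and M10 (12) and A7 (10) on plate A. The summed level of the list ran from 108 to 50612 CPM with a median of 1316. Both plates held wells of either kind.

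The rule did not collect every mural-like well of the plates. A further 18 (11 on plate A, 7 on plate B) were among the comparison wells, giving 39 in all. Their median depth was 155367 reads and their median mural level 18804 CPM, against 165893 reads and 17490 CPM in the 21 members. Their median of *Rgs5* was 8275 CPM against 6835. In 17 of the 18, *Cdh5* and *Kdr* had 1 to 3 reads together, 11 had 1 read of *Kdr*, and in 17 none of the 3 genes of the rule was above trace. Mural-like wells on the 2 sides of the rule were thus separated by a few reads of *Cdh5* or *Kdr*.

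The 6 member wells led by fibroblast markers, 4 on plate A and 2 on plate B, held 40497 to 358062 reads. In 1 of them, I24 on plate B, the endothelial list was higher than the fibroblast list, at 17532 against 2310 CPM, and that well is given no cell type name. *Col1a1*, *Col1a2* and *Col3a1*, the chains of the fibrillar collagens of dermis, were above trace in all 6. *Col1a1* lay between 593 and 6087 CPM with a median of 3367. *Dcn*, the collagen-binding proteoglycan decorin, was above trace in 5, with a median of 5715 CPM and a highest value of 13352. *Pdgfra*, the PDGF receptor of fibroblasts, and *Lum*, the proteoglycan lumican, were also above trace in 5. The well L14 on plate A held 2087 reads of *Dcn*, 384 of *Pi16* and 258 of *Mfap5*, genes of a fibroblast state found around vessels and in fascia. *Rgs5* had at most 3 reads in the 6 wells.

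The endothelial list had at most 2 genes above trace in any of the 6 wells. *Pecam1* was above trace in 1, I24, which held 24 reads of *Col1a1* and 89 of *Dcn* beside 402 of *Pecam1*, 592 of *Emcn*, a sialoprotein of capillary and venous endothelium, and 107 of *Plvap*, the diaphragm protein of fenestrated capillaries. As in the mural-like wells, immediate early genes spread widely, with 2 to 13 of the 15 above trace and a median of 19248 CPM.

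The 12 wells led by further endothelial genes all had a *Pecam1* read, so by the rule none had a *Cdh5* or *Kdr* read. Each well had at least 3 other endothelial genes above trace. They held 26733 to 302822 reads, with a median of 66576.5, and 10 of them lay on plate A. *Pecam1* had 3 to 1096 reads with a median of 75.5 and was above trace in 7, and *Plvap* was above trace in 8. *Emcn* and *Ptprb*, a phosphatase of endothelial junctions, were each above trace in 6.

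Single wells of this set were plainly endothelial by many genes. Well L22 on plate A held 1096 reads of *Pecam1*, 1272 of *Plvap*, 712 of *Mmrn2* and 595 of *Tek*, the angiopoietin receptor. Well B14 on plate A held 1078 reads of *Pecam1*, 1103 of *Cldn5*, a claudin of tight junctions, 723 of *Esam* and 441 of *Robo4*. Well B12 on the same plate had 1041 reads of *Plvap* and 829 of *Tie1* but only 5 of *Pecam1*. In these wells *Cdh5* and *Kdr* stood at 0, as the rule fixes for a well with a *Pecam1* read.

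One member well carried epidermal genes. Well G5 on plate A, with 195184 reads and 5375 genes, held 604 reads of *Krt17*, 422 of *Krt14* and 328 of *Krt5*, keratins of basal and follicular epidermis, and 200 of *Krt15*. It also held 489 reads of *Dct*, 219 of *Tyrp1*, 79 of *Pmel* and 47 of *Mlana*, genes of pigment synthesis in melanocytes. No other member well had 3 markers of either list above trace. G5 alone held 98.4% of all *Krt14* reads of the member wells.

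Lymphatic markers were above trace in 14 member wells. No member had 3 of them above trace, while 48 comparison wells were lymphatic-like. In 4 members, exactly 2 were above trace. Well B23 on plate A held 383 reads of *Mmrn1*, which encodes the secreted multimerin of lymphatic endothelium, and 31 of *Ccl21a*, the chemokine that lymphatics display. Well E8 on plate B held 104 reads of *Prox1*, the transcription factor of lymphatic identity, and 23 of *Ccl21a*. Well I3 on plate B held 538 reads of *Lyve1*, the hyaluronan receptor against which the sort selected, with 164 of *Ccl21a* and 384 of *Cldn5*. The last, N14 on plate A, held 45 reads of *Flt4*, the VEGF-C receptor, and 17 of *Ccl21a*. These 4 wells had 17525 (B23), 14676 (E8), 21608 (I3) and 12928 reads (N14), and no member well under 20000 reads reached 3 markers of any list.

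Leukocyte genes had few reads in the member wells. *Ptprc*, the gene of CD45, had no read in any member well, against 3 and 12 reads in the comparison wells of plates A and B. By the 3-count limit at most 1.72% of wells would have a read, which sets no limit on the wells that hold a leukocyte. The 10 leukocyte genes together had 24 reads. No member had a leukocyte or erythroid gene above trace. *Cpa3*, a mast cell protease, was above trace in 1 well with 31 reads. Above-trace markers of chondrocytes were seen in 2 wells, of adipocytes in 1, of skeletal muscle in 2 and of platelets in 3.

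In 9 deep member wells no list reached 3 markers. Among all member wells without a list, *Pecam1* was above trace in 2, O2 on plate A (146 reads) and D13 on plate B (97 reads), with fewer than 3 further endothelial markers. Well N23 on plate A had 4957 genes from 36488 reads, no *Pecam1* and 5 reads of *Cdh5*, the only member with that gene.

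Summed over all wells of a set, the member wells were richer in mural and fibroblast transcripts and poorer in endothelial ones. Reads were summed per gene, plate and set and scaled to CPM, and a gene was called where its ratio passed 2-fold on both plates. Of 14895 genes compared, 861 were higher in the member wells (5.78%) and 3324 were lower (22.3%), and the rule used this same contrast. The split depends on the scaling: 20.6% of the called genes were higher with CPM, and 34.8% (1360 higher, 2546 lower) with median-of-ratios size factors, which raise each ratio by 0.28 log2 units on plate A and 0.66 on plate B. The median log2 ratio of all genes compared was -0.42 with CPM.

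The mural list stood at 8345 CPM in member wells and 1730 CPM in comparison wells on plate A, and at 12026 and 1584 CPM on plate B (log2 ratios 2.27 and 2.92). Of its 10 genes, 8 were called higher and none lower, beside 5.78% and 22.3% of all genes compared. The list's median log2 ratio was 2.67, against -0.42 over all genes compared. The other 2, *Tagln* and *Cspg4*, had log2 ratios of -0.18 and -2.53 on plate A and of 0.50 and 2.30 on plate B. *Rgs5* itself had 3198 against 613 CPM on plate A and 4035 against 614 CPM on plate B. The fibroblast list stood at 5327 against 723 CPM and 2521 against 688 CPM (log2 ratios 2.88 and 1.87). Of its 10 genes, 4 were called higher, *Col1a1*, *Col1a2*, *Col3a1* and *Dpt*, and none lower, beside the same 5.78% and 22.3% of all genes. The fibroblast list's median log2 ratio was 2.65. On plate B alone, 5 of the 10 had negative log2 ratios, *Pdgfra* (-0.15), *Lum* (-0.51), *Pi16* (-0.44), *Mfap5* (-1.33) and *Clec3b* (-0.84). The value of *Clec3b* rests on 0 member reads set to 3 counts. *Col1a1* had 943 against 112 CPM and 386 against 123 CPM. *Dcn* missed the call, since its log2 ratio was 3.11 on plate A and 0.95 on plate B.

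Endothelial genes outside the rule were lower in the member wells. The 20 genes of that list summed to 4542 against 14826 CPM on plate A and to 3336 against 14180 CPM on plate B (log2 ratios -1.71 and -2.09). Of them, 16 were called lower and none higher, beside 22.3% of all genes compared with CPM. With size factors 11 were called lower, beside 2546 of all 14895 genes. The lymphatic list stood at 319 against 2270 CPM and 433 against 2364 CPM (-2.83 and -2.45). Of its 8 genes, 7 were called lower with CPM and 5 with size factors, beside the same shares of all genes. *Mmrn1*, its first gene, had 91.6 against 658 CPM and 20.9 against 734 CPM. Keratinocyte genes went opposite ways on the 2 plates, at 445 against 160 CPM on plate A, where well G5 lay, and 6.85 against 172 CPM on plate B. Their log2 ratio over both plates was 0.81 with G5 and -2.62 without it. *Krt14* followed with 86.5 against 18.7 CPM and 1.14 against 51.8 CPM.

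**Figure D5:**
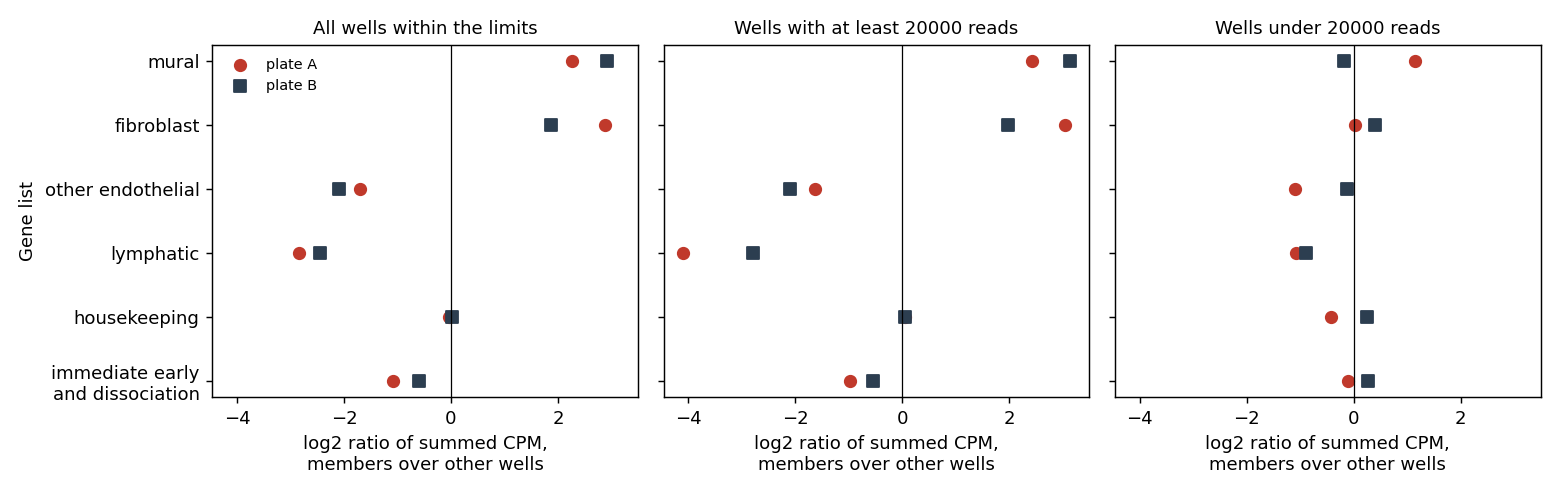
Log2 ratio (x axis) of the summed CPM of 6 gene lists (y axis), member over comparison wells, on plate A (circles) and plate B (squares), for all wells, wells of at least 20000 reads and wells under 20000 reads. Over all wells the mural list was at 2.27 and 2.92 and the lymphatic list at -2.83 and -2.45, and with size factors in place of CPM the immediate early list on plate B (-0.60 to 0.06) and the housekeeping list on plate A (-0.03 to 0.25) changed sign.

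Housekeeping genes lay near the same level in both sets. The 10 genes had log2 ratios of -0.03 on plate A and 0.02 on plate B with CPM, 0.25 and 0.68 with size factors, and none was called. Of the 15 immediate early genes, 4 were called lower, beside 22.3% of all genes compared (list log2 ratios -1.08 and -0.60). With size factors the ratio on plate B turned to 0.06 and 1 gene was called lower, beside 2546 of all 14895 genes. Of the 29 mitochondrial genes compared, 11 were called higher and none lower, and of 127 ribosomal protein genes 1 was called higher and 4 lower, beside 5.78% and 22.3% of all genes.

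For the mural, fibroblast, endothelial and lymphatic lists the ratios were larger in size among the deep wells than among the shallow ones. With both sets limited to at least 20000 reads, the mural list had log2 ratios of 2.42 and 3.13 on plates A and B and the fibroblast list 3.05 and 1.98. Below 20000 reads the mural list had 1.14 and -0.17, and the fibroblast list 0.04 and 0.40. The endothelial list had -1.63 and -2.11 in the deep wells and -1.09 and -0.12 in the shallow ones, and the lymphatic list -4.10 and -2.78 against -1.07 and -0.90. Of the 861 and 3324 genes called in all wells, 689 and 2936 were also called among the 815 and 3168 of the deep wells.

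The genes with the largest ratios each rested on few wells. The 15 taken by a fixed rule of size were 15.9 to 67.2 times higher in the summed reads of member wells, were above trace in 2 to 10 of them, and had 25.6 to 75.8% of their member reads in 1 well. *Daam2*, a formin of the Wnt pathway, led with 64.6 against 1.04 CPM on plate A and 88.6 against 1.12 CPM on plate B, above trace in 9 wells. *Angpt1*, the ligand by which mural cells act on the endothelial receptor encoded by *Tek*, had 45.3 against 10.7 CPM and 357 against 0.729 CPM, above trace in 9 wells. *Ogn* and *Mfap2*, which encode matrix proteins, were above trace in 4 and 7 wells, and *Cdh11*, the cadherin of mesenchyme, in 6. *Adra2a*, an adrenergic receptor, was above trace in 8 and *Mrvi1*, a gene of smooth muscle calcium signalling, in 10. The others were *Medag*, *Dpep1*, *Dkk2*, *Gm44596*, *Scarf2*, *Nrip2*, *Pdgfrl* and *Tmem119*.

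The 15 genes with the largest ratios in the other direction were low in the member wells by counts of a few reads. *Kdr* and *Cdh5* led, as the rule sets. Each of the other 13 had 1 to 3 reads over all 174 member wells, so no fold is given. Among them, *Prkdc*, a kinase of DNA repair, had 72.5 CPM in the comparison wells of plate A and 69.8 CPM on plate B, with 3 reads in the members. *Gch1*, the first enzyme of tetrahydrobiopterin synthesis, had 56.7 and 41.4 CPM with 3 reads in the members, and *Ehd3*, a membrane trafficking protein, 51.1 and 38.6 CPM with 2 reads. The rest were *Vav3*, *Gstk1*, *Usp42*, *Plscr1*, *Sart1*, *Nadk2*, *Fen1*, *Ttc9*, *Slc35b4* and *Slc35f2*.

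With every well thinned to the same number of reads on genes, the sets differed in how often a marker was seen. Each well was thinned to 5000 reads, which left out 34 member and 26 comparison wells that were shallower. *Rgs5* then had a read in 44.3% of 140 member wells (35.9 to 52.9%) and in 24.6% of 556 comparison wells (21.1 to 28.4%). *Dcn* had one in 40.7% against 20.9%, and *Col1a1* in 20.0% against 9.17%. *Cldn5* had one in 43.6% against 64.2%, *Mmrn1* in 19.3% against 26.8%, and *Plvap* and *Krt14* in like shares of both (66.4% against 66.7%, 2.14% against 1.98%). These shares count trace reads: over all member wells at full depth, *Rgs5* had a read in 113 and was above trace in 23, and *Dcn* had one in 102 and was above trace in 17. The thinning matched the total of reads on genes, of which mitochondrial and rRNA locus reads took a larger share in member wells, and the thinned wells held fewer genes in the member set, with medians of 661.5 against 1085.5 on plate A and 745.5 against 990 on plate B.

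Clustering of the 174 member wells by their 1000 most variable genes gave 6 clusters, ordered by size. Cluster 4, with 26 wells (18 on plate A, 8 on plate B) and a median of 170239 reads, held 20 of the 21 mural-like wells, 5 of the 6 wells led by fibroblast markers and the keratinocyte-like well. It was led by *Kcnj8*, *Pdgfrb*, *Postn*, *Vtn* and *Ednra*, and is called mural-like. Cluster 6, with 21 wells and a median of 47271 reads, was led by *Adipor2*, *Rapgef1*, *Ptprm*, *Tek* and *Cd36* and held 10 of the 12 endothelial-like wells. These leading genes had 35.2 to 79.8% of their cluster reads in 1 well, and a read in 7 to 13 of the 21 wells. The other 4 clusters had median depths of 5640 to 14890 reads and held 37, 36, 30 and 20 of the wells with no list. They are left unnamed. In clusters 1, 2, 3 and 5 the first gene had nearly all its reads in 1 well, *Dll4* (97.7%), *Lyve1* (96.1%), *Sgk1* (95.7%) and *Ralgps2* (94.2%), while other leading genes were spread over wells, such as *mt-Cytb* in cluster 1, with 6.21% of its reads in its top well.

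When all 756 wells were clustered together, 10 clusters resulted and member wells fell into 8 of them. One cluster of 57 wells, 26 of them members, held 38 of the 39 mural-like and 13 of the 16 wells led by fibroblast markers of the replicate. Mural-like wells of both sets thus fell into 1 cluster.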

How the data were processed

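Single cells of replicate 2 (plates A and B) were analysed from the deposited tables of counts, in which the authors gave whole reads per gene and well. Per the submitters' processing notes, TopHat2 2.1.1, SAMtools 0.1.18 and Subread 1.4.6-p5 were used with mm10. The study's methods state that duplicated reads were removed. The annotation release is not given in the sources used here. Gene symbols were matched by identifier (46005 of 46517). Totals leave out the 92 ERCC transcripts.

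Member wells were chosen by the rule given above, and the rule, the 14 cell type lists and the quality lists were chosen with earlier results of these data known. Genes were named from those lists, by the 15 largest ratios in each direction among called genes with a read in at least 5% of wells of the higher set on each plate, or as 1 of up to 5 leading genes of a cluster. Genes compared had at least 50 reads and a read in at least 10 wells, and a set at 0 was set to 3 counts. Clustering used log2(CPM-based counts + 1), 10 principal components, 10 neighbours and leidenalg 0.10.2 at resolution 1. Python 3.11.15, numpy 2.4.6, pandas 2.3.3, scipy 1.17.1, scikit-learn 1.9.0 and igraph 0.11.9 were used. The code was tested on simulated data. Doublets were not called. Depth per well sets which genes can be seen: wells of replicate 2 held 1143 to 569668 reads. Alternatives covered depth, thinning, scaling, filters, fold, plates left out and cluster resolution. Some genes of the lists are not reported here.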

Additional observations from a re-analysis of the deposited data

How the results depend on the processing

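Values moved with the rule itself. Requiring a read of none of the 3 genes left 2 wells, both on plate A, with a median of 8654 reads and an ERCC share of 11.3%, and no gene could be called on both plates. With those 2 wells the log2 ratios were -1.61 for the fibroblast, -3.84 for the mural, -2.16 for the lymphatic and -3.32 for the endothelial list. A minimum of 10000 reads left 89 wells, with medians of 26733 reads and 1674 genes and an ERCC share of 7.75%. Counting the 3 genes only above trace gave 531 wells. Against the wells with a read of all 3 genes (medians of 123016 reads, 2769.5 genes and 1.28% ERCC), the fibroblast and mural ratios rose to 4.42 and 3.53, and that of skeletal muscle turned to 1.68.

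The mean of single-well CPM, which weights wells equally, gave log2 ratios of 0.94 for the fibroblast, 1.21 for the mural, -1.34 for the lymphatic and -1.34 for the endothelial list, 0.29 for skeletal muscle, and 389 genes higher. Thinning to 5000 reads gave 1.32, 1.41, -1.74 and -1.36, and 163 genes higher. Limited to wells under 20000 reads, chosen after seeing the data, they were -0.12, 0.78, -0.79 and -0.58, with 0.76 for skeletal muscle, 0.28 for the erythroid list, and 76 genes higher and 398 lower. Ratios in this paragraph are over both plates together, except where 1 plate was left out. On the single plates the fibroblast list of these shallow wells had 0.04 (A) and 0.40 (B). Wells of at least 20000 reads gave a lymphatic ratio of -3.50. Leaving out 1 plate, or the member well with most reads (of the list, for a list), gave 1.87 to 2.88 (fibroblast), 2.27 to 2.92 (mural), -3.13 to -2.45 (lymphatic), -2.09 to -1.71 (endothelial) and -4.65 to 1.48 (keratinocyte), and 816 to 2762 genes higher and 3417 to 7290 lower. A single plate needs no agreement with the other, so these counts are larger by construction.

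Without a filter on low counts 1721 genes were higher, at 4-fold 292 higher and 1803 lower, and with size factors 1360 higher. Counting any read, the wells with 3 or more markers were 68 for mural, 51 for fibroblast, 173 for endothelial, 68 for lymphatic and 3 for keratinocyte lists, against 21, 12, 15, 0 and 1 above trace. Clusters numbered 3 at resolution 0.5, 11 at resolution 2 and 10 with all wells. The cause of these shifts was not tested. Member and comparison wells were compared within each plate of 1 replicate, and no paired test was run.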
